A study of Homo sapiens with 12 samples.

Results

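The regions described here carried a called H3K4me3 peak in both HA-Bcl-xL libraries analysed and in none of the 3 control libraries. H3K4me3 is histone H3 trimethylated at lysine 4, measured in BON1, an established human pancreatic neuroendocrine tumour line. The regions were chosen by the peak calls themselves: the 5 peak lists on chromosomes 1 to 22 and X were pooled, touching or overlapping peaks were merged, and a merged region was kept when it met that pattern. This gave 650 of 30384 merged regions, or 2.14%. The mirror set held 169 regions (0.556%) called in each of the 3 control lists but in neither HA-Bcl-xL list. It serves as the contrast, and a further 4923 regions had a peak in all 5 libraries. The patterns are not symmetrical, since one asks for 2 libraries present and 3 absent and the other for 3 present and 2 absent. The calls decided membership, so counts and strengths of H3K4me3 peaks in these regions are given as descriptions, without a test.

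The groups were control BON1 cells (3 H3K4me3 and 3 IgG libraries) and HA-Bcl-xL BON1 cells (2 H3K4me3 and 3 IgG libraries), all grown in medium with puromycin. HA is an epitope tag and Bcl-xL an anti-apoptotic protein of the BCL2 family. The first HA-Bcl-xL replicate with the H3K4me3 antibody was not analysed here. The labels do not say what the control cells express, whether either line came from 1 clone, or whether replicates were separate cultures, so a difference between the lines and a difference between clones cannot be told apart. The assay was CUT&RUN, in which a nuclease tethered to an antibody releases the DNA around the mark. Every peak list was called on 1 library, and IgG, an antibody with no target in these cells, gives the background of the assay. The promoters of NEUROD1, SCG2, SCG3 and CHGB, which mark neuroendocrine cells, carried a peak in all 5 libraries, and 7 of 11 such marker promoters had one in at least 1. None of 6 fibroblast or 4 blood marker promoters had a peak in any library, while 1 of 4 exocrine pancreas markers, PTF1A, had one in 1 library.

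H3K4me3 is written by the SET1 and MLL complexes and is found on the nucleosomes beside the 5′ ends of active and poised genes. It is usually strongest on the first nucleosomes inside the gene and on those just before the start site, on either side of the gap where transcription starts. A called peak therefore marks a place where enriched fragments passed a threshold, and the edges of one marked promoter can be called as several peaks in one library and as one in another.

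The sequences below show the most common kind of place among the 650 regions, a promoter with unique sequence, so that the small extent of a member can be seen. Each is a window of 200 bases of GRCh37 on the + strand, centred on the summit of the better ranked of the 2 HA-Bcl-xL peaks, and capitals mark the bases under the peak in both HA-Bcl-xL libraries. The 3 are the highest ranked promoter members whose window overlaps no annotated UTR.
PARPBP, chr12:102514132-102514331, + strand: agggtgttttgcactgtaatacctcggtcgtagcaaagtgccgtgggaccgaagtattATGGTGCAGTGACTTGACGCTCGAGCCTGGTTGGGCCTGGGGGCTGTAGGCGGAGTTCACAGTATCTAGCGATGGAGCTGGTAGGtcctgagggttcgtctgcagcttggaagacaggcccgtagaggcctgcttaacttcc
TGFBR2, chr3:30648689-30648888, + strand: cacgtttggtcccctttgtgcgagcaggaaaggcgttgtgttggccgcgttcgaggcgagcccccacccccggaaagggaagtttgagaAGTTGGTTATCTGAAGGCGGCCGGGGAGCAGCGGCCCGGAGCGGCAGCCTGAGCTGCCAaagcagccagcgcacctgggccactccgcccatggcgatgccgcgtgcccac
ZNF300, chr5:150284709-150284908, + strand: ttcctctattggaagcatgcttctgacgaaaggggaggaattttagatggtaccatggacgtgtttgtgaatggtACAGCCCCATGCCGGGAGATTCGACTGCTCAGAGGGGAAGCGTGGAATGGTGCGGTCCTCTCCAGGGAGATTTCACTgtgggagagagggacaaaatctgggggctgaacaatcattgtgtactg
The 3 windows hold 10, 18 and 6 CpG dinucleotides, with 56.5%, 67.0% and 51.5% GC. The TGFBR2 window has 1 GC box (GGGCGG, either strand) and the ZNF300 window 1 CCAAT.

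The control H3K4me3 lists held 17687, 12138 and 10237 peaks, in replicate order, and the HA-Bcl-xL lists (replicates 2 and 3) 16363 and 15478. The lists give no read totals. The lowest background solved from the peaks, which scales with depth but not with depth alone, was 0.0659, 0.0705 and 0.0478 fragments in the controls and 0.0692 and 0.0681 in HA-Bcl-xL. Control replicate 3 thus had the lowest background and control replicate 1 the most peaks. The order of the libraries by depth cannot be read from these values. Absence from a list shows a missing call, not an absence of the mark, and the part that depth played in membership was not tested. When each list was cut to its strongest 10237 peaks, 402 regions had the HA-Bcl-xL-only pattern and 220 the control-only pattern, and 221 of the 650 members (34.0%) were among the 402. Without control replicate 1 the count rose from 650 to 1668, and with only HA-Bcl-xL replicate 3 or only replicate 2 it was 4138 or 4430, so leaving out any of these 3 libraries moved it by over 1.5 times. The control-only count was 277, 471 and 664 without control replicates 1, 2 and 3, and 587 and 443 without HA-Bcl-xL replicates 2 and 3. Each library left out drops a condition of the pattern, so these counts could only rise.

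Most HA-Bcl-xL-only regions lay at promoters. Of the 650, 389 (59.8%) lay within 1 kb of a protein-coding gene's outermost annotated start. A further 110 (16.9%) were within 1 kb of the 5′ end of another transcript of such a gene, and 46 (7.08%) were at the 5′ end of a gene of another type, such as a long noncoding RNA. The remaining members were exonic (15, 2.31%), intronic (56, 8.62%) or intergenic (34, 5.23%). The promoter share was 57.4% among control-only regions (97 of 169), 71.1% among regions shared by all 5 libraries and 49.7% among all merged regions. The order of the 2 sets called in 1 line turned with the definition: with a 2.5 kb promoter the shares were 68.8% of members and 80.5% of control-only regions, and with the starts of all protein-coding transcripts 76.8% and 84.6%. Farther than 5 kb from a protein-coding 5′ end were 28.2% of members and 17.8% of control-only regions. With HA-Bcl-xL replicate 2 or 3 left out the promoter share fell to 36.0% or 38.2%, over the larger counts given above.

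At promoters the members tended to miss the start site itself. By the rule a member cannot touch a control peak, so beside a control peak called at the start it could only lie off it. How much of the offset follows from this was not tested. Their midpoints lay downstream of the 5′ end in 249 of 389 cases (64%), with a median 252 bp inside the gene. The control-only promoter regions had 63.9% downstream and a median of 287 bp, and all merged promoter regions had 60.7% and 174 bp. For the regions shared by all 5 libraries 55.9% were downstream, with a median of 45.0 bp. The 200 bp just before the 5′ end held 16.7% of promoter members, 25.8% of control-only promoter regions and 34.3% of shared ones. A protein-coding 5′ end was spanned by 62 of the 389 promoter members (15.9%), 28 of the 97 control-only promoter regions (28.9%) and 1528 of the 3500 shared ones (43.7%). Widths differed between the sets, and their part in this was not tested: the median was 130 bp for members, 177 bp for control-only regions and 260 bp for shared regions. The sets were merged over 2, 3 and 5 lists, and merging over more lists lengthens a region. Within the list of HA-Bcl-xL replicate 2 the median peak was 99.0 bp in members and 161 bp in shared regions. Of the 389, 67 (17.2%) lay within 1 kb of the 5′ ends of 2 or more protein-coding genes, as at the divergent pair PARPBP and NUP37. Among control-only promoter regions 20 of 97 (20.6%) did.

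**Figure D1:**
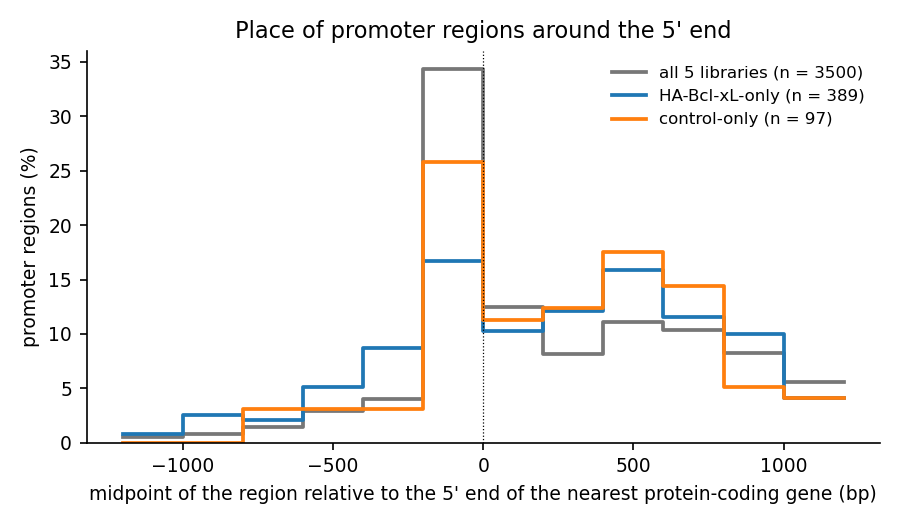
Percent of promoter regions (vertical axis) by the position of the midpoint relative to the 5′ end of the nearest protein-coding gene in bins of 200 bp (horizontal axis, positive inside the gene), for the 389 HA-Bcl-xL-only, 97 control-only and 3500 shared promoter regions; the outermost bins also hold midpoints beyond them. The shared regions peak in the bin just before the 5′ end (34.3%), where the HA-Bcl-xL-only regions have 16.7%, while 400 to 600 bp downstream the order is the other way (15.9% against 11.1%), with control-only regions at 17.5%.

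Most members had a control peak nearby, which by the rule none of them touched. The nearest control peak lay at a median of 451 bp, within 500 bp for 344 members (52.9%) and within 2.5 kb for 453 (69.7%). For 211 members (32.5%) each of the 3 controls had a peak within 2.5 kb, and for 197 (30.3%) none did. By library, 63.4%, 49.1% and 40.5% of members had a peak of control replicates 1, 2 and 3 within 2.5 kb, the order of the lists by length. Promoter members had such a neighbour more often (300 of 389, 77.1%) than the others (153 of 261, 58.6%), while for control-only regions the shares were 76.3% at promoters and 84.7% elsewhere. A region shared by all 5 libraries lay within 2.5 kb of 161 members (24.8%). Control-only regions had an HA-Bcl-xL peak within 2.5 kb in 79.9% of cases, at a median of 340 bp. If peaks up to 500 bp apart were merged, 366 HA-Bcl-xL-only and 83 control-only regions were left, and 288 of the 650 members (44.3%) overlapped one of the 366. Of the 366, 30.6% had a control peak within 2.5 kb. With HA-Bcl-xL replicate 2 or 3 left out that share of the HA-Bcl-xL-only regions was 44.6% or 49.4%.

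**Figure D2:**
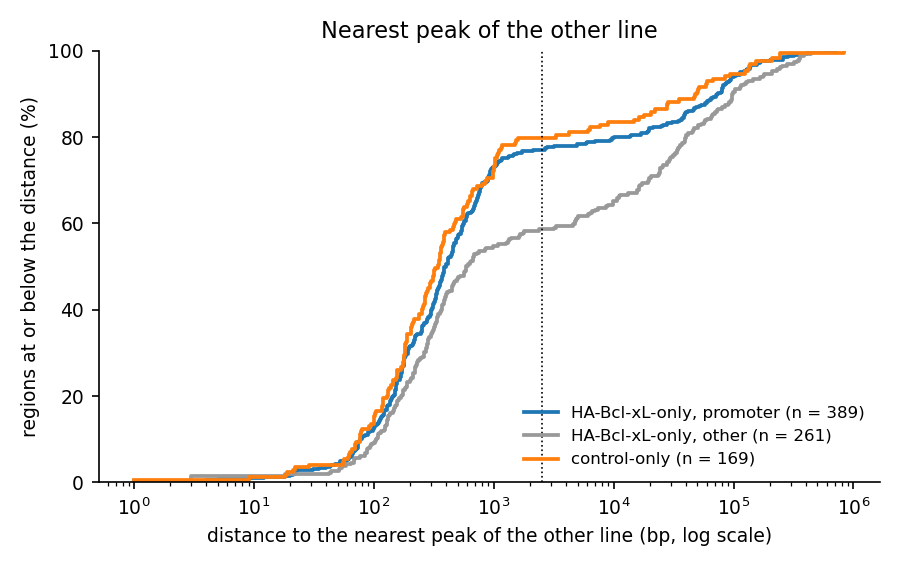
Cumulative percent of regions (vertical axis) by the distance to the nearest peak of the other line (horizontal axis, bp, log scale), for the 389 promoter members, the 261 other members and the 169 control-only regions; the dotted line marks 2.5 kb. All 3 curves rise steeply between 100 and 1000 bp, and the curve for the other members levels off lowest, at 58.6% by 2.5 kb.

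Read by gene, 450 of 20098 protein-coding genes (2.24%) had an HA-Bcl-xL-only region within 1 kb of the 5′ end, and 117 (0.582%) a control-only region. At 153 of the 450 (34.0%) all 3 control libraries had a peak of their own within 1 kb of the same 5′ end, at 93 (20.7%) 2 did, and at 85 (18.9%) 1 did. The other 119 genes (26.4% of the 450, 0.592% of all genes) had no control peak there. The like count for control-only regions was 32 genes (0.159%) without an HA-Bcl-xL peak, 27.4% of 117. With 500 bp merging the gene counts were 223 and 58. With 1 library left out, which loosens the pattern, they were 562 to 1886 and 188 to 452.

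The members were weak peaks in their own lists, with a small set of exceptions. Peaks were ranked within each list by −log10 p, from 0 for the weakest to 100 for the strongest. Peaks in the 650 regions had a median rank of 39.1 in HA-Bcl-xL replicate 2 and 37.7 in replicate 3, while peaks of those libraries in the shared regions had medians of 77.7 and 76.1. The median peak held 9 fragments at its summit in each library, as solved from the deposited fold and −log10 p, against 15 and 15 in the shared regions. Ranks in the 2 lists were loosely related over the 650 regions (Spearman correlation 0.332, across regions that share depth and membership, so without a p). Both ranks were at or above 50 in 116 regions (17.8%), at or above 75 in 20 (3.08%) and at or above 90 in 10 (1.54%). Among control-only regions 18 of 169 (10.7%) had all 3 ranks at or above 50, and 0 had all at or above 75. The peak summits of the 2 HA-Bcl-xL libraries were a median of 24 bp apart. Members with no control peak within 2.5 kb had median ranks of 38.4 and 39.2, and those with one 39.2 and 36.3, with 7 and 7 fragments at the median against 10 and 10.

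**Figure D3:**
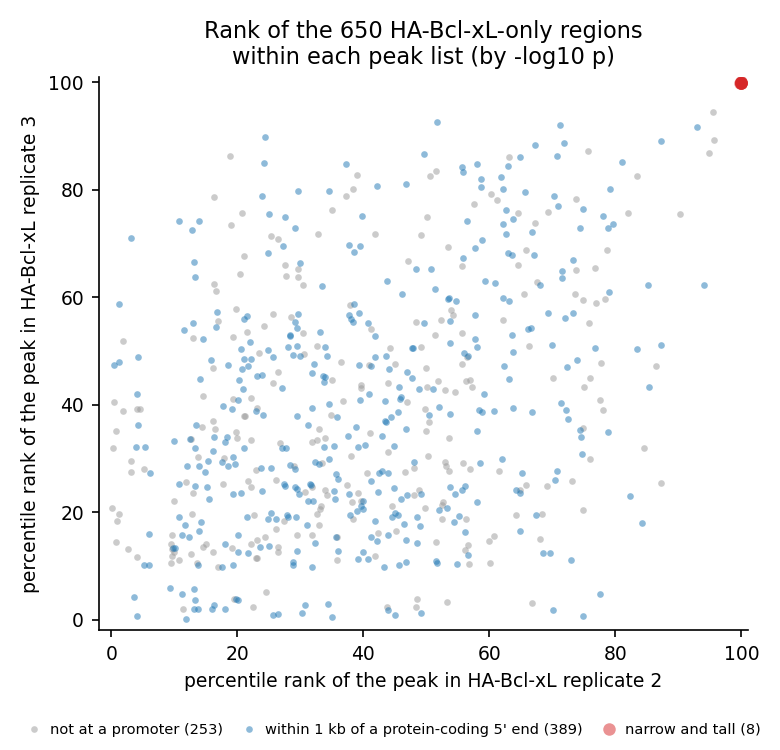
Percentile rank of the 650 HA-Bcl-xL-only regions by −log10 p within the list of HA-Bcl-xL replicate 2 (horizontal axis) and replicate 3 (vertical axis), one point per region. Most points lie under rank 60 in at least 1 list, and the 8 narrow, tall members overlie each other in the upper right corner.

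The edge of the rule lies where peaks touch. Inside it, 8 members had a control peak within 10 bp, at gaps of 1 to 9 bp. Just outside it, 10 regions were left out in which HA-Bcl-xL and control peaks touched or shared at most 10 bp, from 0 to 9 bp. BRAF, a kinase of the RAS pathway, is an example of the first kind: its member lay 4 bp from a peak of control replicate 1.

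The highest ranked promoter member, by the lower of its 2 ranks, was at PARPBP and NUP37 (chr12:102514190-102514278, in a noncoding exon). NUP37 is a subunit of the nuclear pore, and PARPBP encodes a PARP1-binding protein that restrains homologous recombination. Its peaks had 18 and 16 fragments in HA-Bcl-xL replicates 2 and 3, at ranks 92.9 and 91.6. The nearest peaks of control replicates 1, 2 and 3 were 58243, 776 and 601 bp away. FBXL19 (chr16:30934315-30934420, over an annotated UTR), which encodes a CpG-binding ubiquitin ligase subunit, followed with 20 and 21 fragments at ranks 87.2 and 89.1. All 3 controls had a peak 129 to 171 bp away. SEL1L (chr14:82000181-82000280), an adaptor of the ubiquitin ligase that clears misfolded proteins from the endoplasmic reticulum, had 15 and 16 fragments. There control replicate 1 had a peak at 679 bp, and replicates 2 and 3 none within 314230 bp. COA3 and CNTD1 shared a member that straddled the COA3 start (chr17:40950664-40950777), with 13 and 14 fragments. COA3 is an assembly factor of cytochrome c oxidase, as is COA5, whose divergent promoter with UNC50 held the next member (13 and 13 fragments).

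The other 7 of the 12 highest ranked promoters were BDP1, SLC38A6 with TRMT5, ARFRP1 with ZGPAT, TGFBR2, DOCK1, ZNF300 and GTF3C5, with lower ranks of 70.9 to 74.8 and 11 to 18 fragments per library. BDP1 and GTF3C5 both encode parts of the RNA polymerase III initiation machinery (TFIIIB and TFIIIC). At BDP1 the 2 libraries gave 16 and 17 fragments and each control had a peak 245 to 251 bp away. At GTF3C5 they gave 11 and 12 fragments, with control peaks at 138 to 315 bp. TGFBR2, the type II receptor of TGF-beta, had its member in an intron (chr3:30648719-30648853, midpoint 693 bp inside the gene, printed above), with 14 fragments in each library. Control peaks stood 275 to 335 bp away in all 3 libraries, more than 1 kb from the start, so by the 1 kb rule no control library was called at that promoter. DOCK1, an activator of the GTPase Rac, carried 2 members 31 and 873 bp inside the gene, the first with 13 and 16 fragments and the second with 8 and 9. Control replicate 1 had a peak within 462 bp of the first, and the other controls none within 117215 bp. Of these 12 promoters the 2 HA-Bcl-xL libraries differed most at ZNF300, with 12 and 18 fragments, and at 9 at least 1 control had a peak within 500 bp of the member: all 3 at FBXL19, BDP1, TGFBR2, ZNF300 and GTF3C5, 2 at COA3 and SLC38A6, and 1 at ARFRP1 and DOCK1. When peaks up to 500 bp apart were merged, SEL1L and UNC50 were the 2 of the 12 still called in HA-Bcl-xL only.

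The exceptions in strength were 8 members that were both narrow and tall. They were 73 to 81 bp wide, about the narrowest width in either list, and ranked 99.8 to 100 in both HA-Bcl-xL libraries. The strongest was intergenic, nearest NDUFA4, a gene for a respiratory chain protein, with 277 and 252 fragments. The one in an intron of NPLOC4, nearest TSPAN10, had 211 and 223, and the intergenic one nearest CT47B1, a cancer/testis antigen gene, had 163 and 164. The members nearest ZSWIM2 (intergenic) and PIWIL3 (chr22:25181257-25181331, intergenic) had 102 and 103, and 100 and 94. The one nearest ZNF486 (chr19:20368182-20368258, at a noncoding gene) had 80 and 71, and the one in an intron of SBF2 (chr11:10298700-10298780) had 71 and 68. The last, at the 5′ end of a BRD8 transcript, nearest KIF20A (chr5:137513009-137513083), had 65 and 64. The 8 were picked as tall in both HA-Bcl-xL libraries and, as members, had no control call, so neither trait is a finding. The fragment numbers of the HA-Bcl-xL libraries were close in each of the 8. The nearest control peak was 167235 bp (PIWIL3) and 180356 bp (CT47B1) away, 11307 to 53609 bp for 5 others and 569 bp for KIF20A.

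All 8 lay in repeated sequence. The median copy number of their 25-base words in GRCh37 ran from 8 (TSPAN10) to 34180 (NDUFA4). Of the other 642 members 38 (5.92%) had a median of 2 copies or more, up to 15, against 5.14% of all merged regions. None of the 8 was at the promoter of a protein-coding gene by the 1 kb rule, and 2 of them overlapped a peak of an HA-Bcl-xL IgG library: ZNF486 in replicate 1 and KIF20A in replicate 3. Peaks of at most 100 bp with a −log10 p of at least 30, limits set after seeing these values, numbered 29 and 28 in the HA-Bcl-xL H3K4me3 lists and 15, 4 and 9 in the control ones. Of IgG peaks, 14, 6 and 15 were such in the HA-Bcl-xL lists, against 4, 5 and 6 for control. Narrow tall peaks were thus more numerous in every HA-Bcl-xL H3K4me3 library than in any control one, and the IgG libraries, with HA-Bcl-xL replicate 2 level with control replicate 3, were otherwise ordered the same way. How the authors treated reads that map to several places is not given in the sources used here, and the part of repeat mapping in these 8 calls was not tested. Without such peaks 642 members were left and the promoter share was 60.6%.

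**Figure D4:**
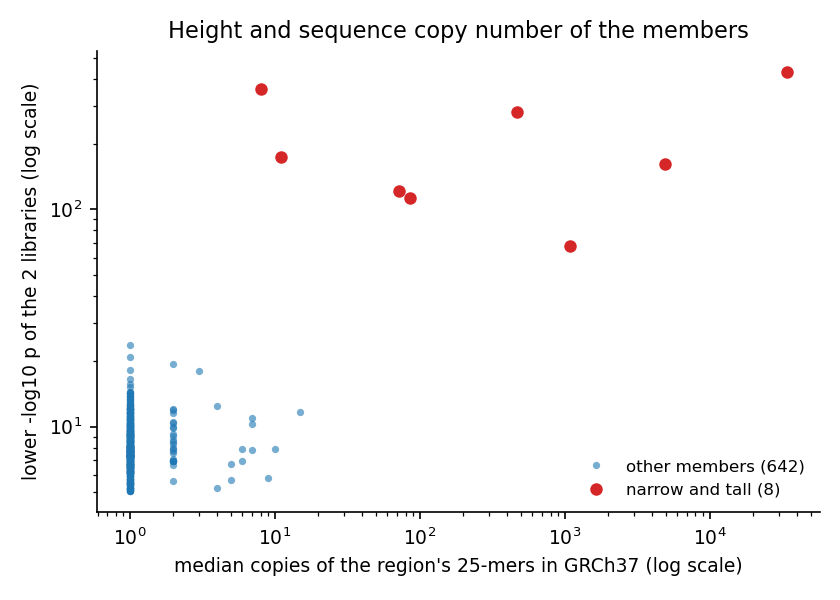
Lower −log10 p of the 2 HA-Bcl-xL libraries (vertical axis, log scale) against the median genomic copy number of the region's 25-base words (horizontal axis, log scale), one point per member. The 8 narrow, tall members stand apart at 8 to 34180 copies, and the other 642 members have 1 to 15 copies.

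Below these 8, the strongest members outside the 1 kb promoters were of several kinds. An intergenic region nearest LYSMD4 (chr15:100466522-100466699) had 15 and 14 fragments, unique sequence by its median word and no control peak within 358926 bp. A region in an exon of CATSPER2, a sperm calcium channel gene (chr15:43941856-43941965), had 15 and 13 fragments and 2 copies. By place it counted as the 5′ end of another transcript of a protein-coding gene. The region beside the pseudogene GTF2IP1, nearest SPDYE13 (chr7:74653448-74653530), had 17 and 14 fragments and 3 copies. The CATSPER2 and GTF2IP1 regions lie in sequence with near-identical copies, so the place of their fragments is uncertain. The region at another 5′ end of PIP5K1A, a phosphoinositide kinase (chr1:151171650-151171749), had 19 and 18 fragments with control peaks at 128 to 561 bp. These 4 regions thus included isolated unique sequence, duplicated sequence and the flank of a marked start.

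The 3 promoter members farthest from any control peak were at TBX3, AMER1 and SPIN1. TBX3, a T-box transcription factor, had a member over its 5′ end (chr12:115121968-115122113), with 8 and 12 fragments at ranks 58.0 and 84.7, and its nearest control peak was 717774 bp away. AMER1, which encodes a Wnt pathway scaffold that inhibits β-catenin, had 5 and 7 fragments just upstream of its start (chrX:63425666-63425760), 450585 bp from a control peak. SPIN1 (chr9:91002487-91002601), which encodes a reader of H3K4me3, had 8 and 6 fragments and no control peak within 412874 bp. In all, 51 of the 389 promoter members (13.1%) were over 50 kb from any control peak. Of the 97 control-only promoter regions 12 (12.4%) were as far from any HA-Bcl-xL peak. The top 10 of the 51 members by rank were chosen after their values were seen. They were TPPP, ZNRF3, ABTB1, MED9, CCDC171, TBX3, MECOM, PARVA, MYB and ARHGAP39, with lower ranks of 52.2 to 63.6.

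The widest members were at RBM4B (359 bp), ZNF260 (357 bp) and H2AC8 (343 bp). RBM4B encodes an RNA-binding protein and H2AC8 a replication-dependent H2A histone. They were weak, with lower ranks of 10.1, 10.5 and 24.9, and each had a control peak within 300 bp. Width and rank therefore did not go together at these 3.

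Among the gene lists, cell-cycle genes had the highest share with an HA-Bcl-xL-only region: 7 of 56 (12.5%), against 2.24% of all protein-coding genes, and 0 had a control-only region, which 0.582% of all protein-coding genes had, so that 0 shows nothing particular to the list. Of the 45 cell-cycle genes with a promoter peak in any library the 7 were 15.6%, against 4.64% of all such genes. The 7 were E2F1, E2F3 and E2F6 (E2F transcription factors, of which E2F6 is a repressor), CCND1 (cyclin D1, which drives entry into S phase), CDK1 and CCNB2 (the mitotic kinase and a cyclin that binds it) and ANAPC2 (a core subunit of the anaphase-promoting complex). At CCND1 the member sat over the 5′ end (chr11:69455860-69456010, midpoint 11 bp inside), with 9 fragments in replicate 2 and 20 in replicate 3, at ranks 24.4 and 89.8. Each control had its nearest peak 34140 bp away, so all 3 control lists missed a promoter that both HA-Bcl-xL lists held, at unequal strength. At E2F6 (chr2:11606283-11606503) the 5 and 6 fragments were few, and the nearest control peak was 10011 bp away.

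The other 5 stood near control peaks. CDK1 had 12 and 14 fragments in an intron, 859 bp inside the gene (chr10:62538881-62539015), with control peaks 111 to 207 bp further on. Like TGFBR2, it counted as free of control peaks only because those lay beyond 1 kb. CCNB2 had 15 and 10 fragments with all 3 controls 81 to 90 bp away, and ANAPC2, at a promoter shared with SSNA1, had 11 and 11 with control replicate 1 at 61 bp. E2F3 had 16 and 11, with control replicate 1 at 444 bp and the others at least 27483 bp away. E2F1 had 7 and 7, with replicate 1 at 481 bp and the others at least 18843 bp away. At E2F1, E2F3 and ANAPC2 the control with a neighbouring peak was thus replicate 1, the one with the longest list. Ranks of the 7 were ordinary for the members, with the lower rank from 13.3 to 60.9 against a median of 25.2 over all 650.

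RAB proteins, small GTPases that direct membrane traffic, had 3 of 62 genes (4.84%, against 2.24% of all genes; 7.69% of those with a promoter peak in any library, against 4.64%): RAB29 with 9 and 11 fragments and no control peak within 25019 bp, RAB21 with 10 and 12, and RAB9B with 3 and 3. RAB9B is near the floor, since 3 fragments was the fewest at any peak of these lists.

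**Figure D5:**
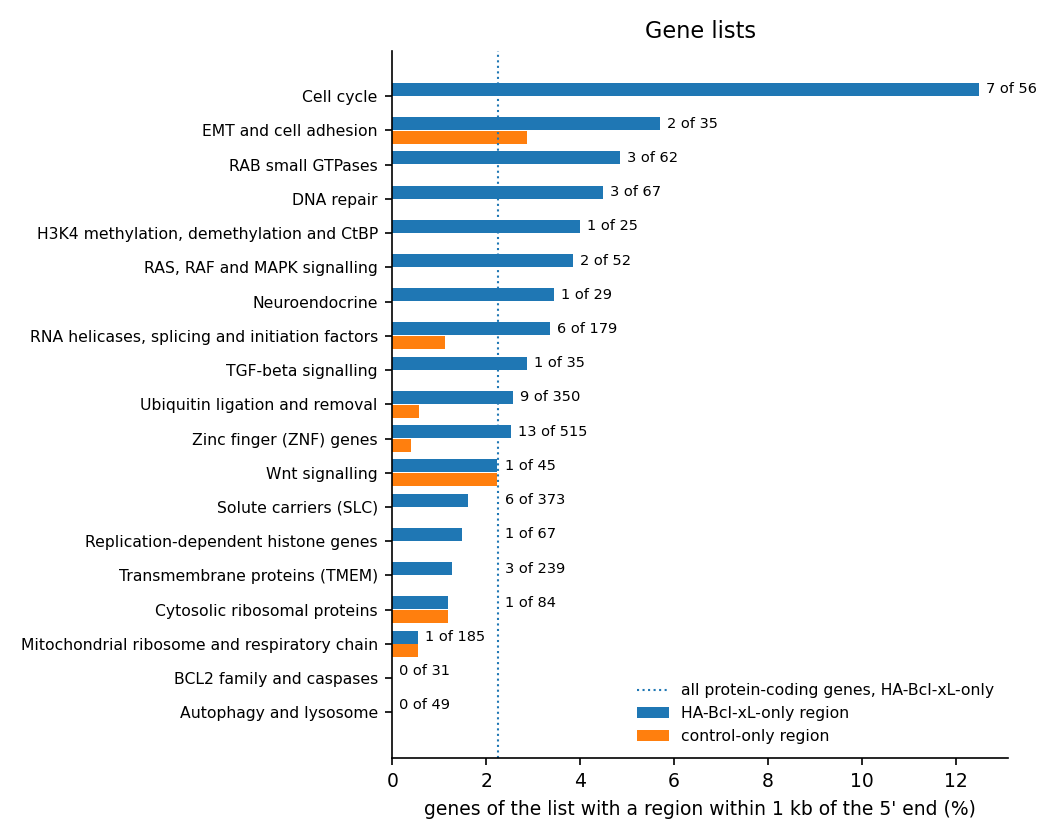
Percent of the genes of each list (horizontal axis) with an HA-Bcl-xL-only (upper bars) or control-only (lower bars) region within 1 kb of the 5′ end, with the number of genes for the former; the dotted line is the share over all protein-coding genes, 2.24%. Cell-cycle genes (12.5%) lie farthest above the line, followed by adhesion genes (5.71%), and BCL2 family and autophagy genes are at 0.

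In the signalling, cell death and identity lists at most 2 genes each were met. None of 31 genes of the BCL2 family and caspases and none of 49 autophagy and lysosome genes had an HA-Bcl-xL-only region. Of these, 19 and 39 had a promoter peak in any library, and at the 2.24% of all genes or the 4.64% of genes with such a peak a count of 0 shows nothing particular to either list. TGF-beta signalling had 1 of 35 genes (TGFBR2, 2.86%) and Wnt signalling 1 of 45 (2.22%), near the 2.24% of all genes. Of the genes with a promoter peak in any library these were 8.33% and 5.0%, against 4.64% of all such genes. The Wnt gene was ZNRF3, a membrane ubiquitin ligase that removes Wnt receptors, with 13 and 9 fragments (chr22:29280332-29280413, in an intron) and no control peak within 84649 bp. Its paralogue RNF43, with the same role, had a control-only region, but both HA-Bcl-xL libraries also had a peak within 1 kb of that 5′ end. Genes of epithelial-mesenchymal transition and adhesion had 2 of 35 (5.71%), the integrin subunits ITGA6 (8 and 7 fragments) and ITGAV (9 and 9), and 1 control-only gene, LPP. The 2 were 12.5% of the list's genes with a promoter peak in any library. Both integrin members were weak, with lower ranks of 12.5 and 3.73. Of the H3K4 methylation list 1 of 25 genes (4.0%) was met: RBBP5, a core subunit of the SET1 and MLL complexes, with 10 and 12 fragments and control peaks at 128 to 162 bp. Of 29 neuroendocrine genes 1 (3.45%) was met, SSTR1, a somatostatin receptor, with 13 fragments in replicate 2 and 9 in replicate 3, and control peaks of replicates 1 and 2 within 294 bp.

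The remaining lists ran from 0.541% to 4.48%, around the 2.24% of all genes. DNA repair had 3 of 67 (XPC, POLH and RAD51C, 4.48%), with 6 to 11 fragments and control replicate 1 within 309 bp at each, and RAS and MAPK signalling had 2 of 52 (BRAF and SOS2, 3.85%). RNA helicases, splicing and initiation factors had 6 of 179 (3.35%), led by DHX29, whose member it shared with MTREX (17 and 19 fragments). Ubiquitin genes had 9 of 350 (2.57%), led by FBXL19, and zinc finger genes 13 of 515 (2.52%), led by ZNF300 (12 and 18 fragments). Solute carriers had 6 of 373 (1.61%), led by SLC38A6, histone genes 1 of 67 (1.49%), TMEM genes 3 of 239 (1.26%), cytosolic ribosomal proteins 1 of 84 (RPL19, 1.19%) and mitochondrial ribosome and respiratory chain genes 1 of 185 (MRPL51, 0.541%). All list counts rest on few genes, and no list was tested.

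Within the larger families the leading members were mixed in strength and in their distance from control peaks. After ZNF300, the zinc finger genes were led by ZNF554 (8 and 7 fragments, no control peak within 21360 bp), ZNF771 (10 and 8, control peaks at 136 to 175 bp) and ZNF408, whose member lay at a promoter shared with ARHGAP1 (9 and 11). Zinc finger proteins of this family are mostly DNA-binding repressors. Among ubiquitin genes FBXO36, at a promoter shared with the ubiquitin ligase gene TRIP12, had 15 and 15 fragments with a control peak 5 bp away. RNF169, which encodes a protein that binds ubiquitylated chromatin at DNA breaks, had 8 and 8, and the deubiquitinase gene USP48 had 12 and 12. Of solute carriers, SLC35E2B had 12 and 14 fragments but 2 copies of its sequence, so its place is uncertain. SLC25A51, which encodes the mitochondrial NAD carrier, had 8 and 12 with control peaks of replicates 1 and 3 at 209 and 98 bp. SLC2A4, which encodes the insulin-regulated glucose transporter GLUT4, had 7 and 6 and no control peak within 19073 bp. Of RNA genes HNRNPM had 9 and 8 fragments, DDX31 11 and 8 and EIF5A 11 and 10, with at least 1 control peak within 1 kb of each region. The 3 TMEM genes were TMEM182, at a promoter shared with MFSD9 (11 and 16), TMEM267 (13 and 13) and TMEM45B (6 and 5), and of these TMEM45B alone had no control peak within 91898 bp.

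The control-only regions, read for contrast, had median ranks of 46.0, 41.6 and 39.5 in control replicates 1 to 3. The highest ranked at promoters were LPP, SEZ6L2, GRK6, DLX2 and GLRX3. LPP, a focal adhesion protein, had 12, 10 and 9 fragments in control replicates 1 to 3 (chr3:187871493-187871677, in a UTR exon), and its nearest HA-Bcl-xL peak was 242654 bp away. DLX2, a homeobox factor of the developing forebrain, had 13, 11 and 13 fragments, with HA-Bcl-xL replicate 2 at 389 bp and replicate 3 at 14896 bp. SEZ6L2, GRK6 and GLRX3 had HA-Bcl-xL peaks of both libraries within 804 bp. Outside the 1 kb promoters YWHAG, TMEM160, ABI2, SBNO2 and ACVR2A led, all but SBNO2 with an HA-Bcl-xL peak within 269 bp. With merging within 500 bp 4 of these 10, LPP, GRK6, GLRX3 and SBNO2, were still control-only, and ABI2 and ACVR2A were lost when presence asked for 50% of the region. None of the 169 reached a −log10 p of 30 in all 3 control libraries, so the narrow tall kind had no counterpart here. Members were within 2.5 kb of another member in 34 cases (5.23%), and control-only regions of each other in 0.

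IgG peaks, which the rule did not use, overlapped few members. The control IgG libraries overlapped 0, 0 and 1 of the 650 and the HA-Bcl-xL ones 2, 0 and 1. The means were 0.333 ± 0.577 (SD, n = 3) and 1.00 ± 1.00 (SD, n = 3), and the difference of 0.667 was within the spread of the libraries (two-sided exact permutation test, p = 0.700, the smallest possible being 0.1). The lists were of unequal length, with 1665 to 2106 peaks in control and 239 to 262 in HA-Bcl-xL cells. Counting IgG peaks within 1 kb turned the difference to −1 (exact p = 0.700). In all, 4 members (0.615%) overlapped an IgG peak, against 0 control-only regions, 45 shared regions (0.914%) and 0.602% of all merged regions. The share of members met by IgG was thus near that of the pool.

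The members were GC-rich. Their median GC content in the 300 bases around the midpoint was 57.7%, with 56.0% for control-only, 56.3% for shared and 53.7% for all merged regions. The ratio of observed to expected CpG had medians of 0.661, 0.644, 0.704 and 0.587 in that order. At promoters alone the order differed: the GC medians were 59.3%, 59.0%, 57.3% and 58.7%, and the CpG ratios 0.698, 0.754, 0.736 and 0.718, lowest in members. Outside the 1 kb promoters the GC medians were 54.7%, 46.7%, 52.0% and 47.0%, and the CpG ratios 0.605, 0.517, 0.614 and 0.374. Of the 261 members there, 110 lay at the 5′ end of another transcript of a protein-coding gene. A further 46 lay at the 5′ end of another gene. The GC box GGGCGG was found on either strand in 43.5% of members, 37.3% of control-only, 46.0% of shared and 35.5% of all merged regions. CCAAT was in 29.7% of members, 32.0% of control-only, 42.5% of shared and 35.3% of all regions, and the ETS letters CCGGAAG in 9.08%, 9.47%, 15.1% and 8.54%. For CCAAT and the ETS letters both 1-line sets lay under the shared regions. The E-box CACGTG was in 6.92%, 7.69%, 5.32% and 5.43%, and the AP-1 letters TGANTCA in 6.0%, 4.14%, 5.77% and 7.23% of the 4 sets in the same order. By chromosome the members made up from 1.39% (chromosome 4) to 3.60% (X, 21 of 583) of the merged regions, with 3.08% on chromosome 9.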

How the data were processed

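H3K4me3 and IgG CUT&RUN libraries of control and HA-Bcl-xL BON1 cells, 12 in the labels, were made per the labels' protocols with a ThruPLEX kit. The labels gave each library's group and replicate number. The 11 files used were narrowPeak lists, 1 per library, with no header. The submitters' processing notes name bcl2fastq 2.20, Trimmomatic 0.36, Bowtie2 2.2.9, MACS2 2.1.1, deepTools 3.5.1 and hg19, without settings. Each list gives the authors' deposited score, fold enrichment, −log10 p and −log10 q of every peak. These are each peak's own deposited values and served only to rank, filter or describe peaks inside their own list, apart from the fragments solved below. The other deposited columns used were peak starts, ends and summits, printed here 1-based.

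Peaks were merged where they touched. GENCODE release 44 lifted to GRCh37 gave genes, 20098 of them protein-coding, and the 1 kb promoter. A whole number of fragments n was solved from fold = (n + 1) / (background + 1) and the Poisson tail p, and 99.58 to 100.0% of a list's peaks had one matching −log10 p within 0.001. Whether n counts fragments or reads is not recorded. Merging and solving were tested on simulated lists. Copies of 25-base words were counted over GRCh37 on both strands. The members, the 19 gene lists, the rule for named regions and the alternatives were chosen with earlier results of these data known. The rule named the 12 highest promoters and 12 highest other members by the lower rank, every list gene met (for name-pattern lists the 4 highest), the 3 widest, the 3 promoters farthest from a control peak, and 5 and 5 control-only regions. IgG overlap was tested by exact permutation over libraries (scipy 1.17.1), and a paired sign-flip test by replicate number was an alternative. The work used matplotlib 3.10.9, pysam 0.24.0, pandas 2.3.3 and numpy 2.4.6 in Python 3.11.15. The promoter table supplied from another build was not used. A further gene list and some sequences are not reported here.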

Additional observations from a re-analysis of the deposited data

Results flagged for a closer look

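On contigs outside chromosomes 1 to 22, X and Y, which the report leaves out, 18 of 531 merged H3K4me3 regions (3.39%) had the HA-Bcl-xL-only pattern, and 2 the control-only pattern. The IgG lists of the same replicates, merged the same way, had 6 of 94 regions (6.38%) with that pattern and 0 with the other. The H3K4me3 count was picked out because it lies in data the comparisons do not use and exceeds the IgG count, although its share is below that of IgG. On chromosomes 1 to 22 and X the H3K4me3 share was 2.14%.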

How the results depend on the processing

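The number of HA-Bcl-xL-only regions was 402 with lists of equal length and 366 with merging within 500 bp, and 799 to 4430 with 1 library left out. With a −log10 q of at least 5 it was 457, but 234 of the 650 members (36.0%) were among these. It also stayed within 1.5 times of 650 without peaks overlapping IgG peaks, with presence over 50% of the region, and without narrow tall peaks (642, chosen after seeing the data). The control-only number was 112 with the q limit, 83 with merging and 110 with presence over 50%, and 277 to 664 with 1 library left out. The genes with an HA-Bcl-xL-only region numbered 223 with merging and 562 to 1886 with 1 library left out, those with a control-only region 58 and 188 to 452. The promoter share of members was 65.7% with equal lists, 55.7% with merging, 68.8% with a 2.5 kb promoter, 76.8% with all protein-coding transcripts, and 36.0 to 63.6% with 1 library left out. The control-only share was 80.5% and 84.6% with the last 2 definitions, and 54.5 to 62.7% with 1 library left out. The share of members with a control peak within 2.5 kb was 61.3% with the q limit, 62.4% with equal lists, 30.6% with merging, 65.7% within 1 kb, and 44.6 to 68.8% with 1 library left out. Merging joins neighbours by construction. Leaving out 1 library drops a condition of a pattern, so those counts could only rise, and all 650 members were kept each time. The size of the rises and the cause of the other moves were not tested. Of the 24 highest ranked members all were kept with the q limit and with equal lists. The choice by rank fixed this, since both settings remove the weaker peaks of each list. With merging 13 were kept (2 of 12 promoters), 22 without IgG overlaps, 23 with presence over 50% and 16 without narrow tall peaks. Of the 10 control-only ones 4 were kept with merging and 8 with presence over 50%. The IgG difference was −1 within 1 kb, 0.667 with the q limit, 3.78 per 1000 IgG peaks, and 0.167 to 1.17 with 1 library left out (exact p from 0.400 to 1.00). With the replicate block the paired difference was 0.667 (exact sign-flip p = 1.00, smallest 0.25). With few fragments at most summits, a missing call limits every absence.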
